A study of Mus musculus with 16 samples.

Results

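The 9 genes described here encode the main transcription factors and nuclear receptors of the hepatocyte: Hnf4a, Foxa2, Foxa3, Cebpa, Cebpb, Ppara, Nr1h4, Nr1i2 and Nr1i3. They were chosen by symbol, and each of the 9 symbols matched 1 row of the 55487 rows of the expression table. Liver RNA was sequenced from 16 male C57BL6/J mice in 4 groups of 4, and each mouse gave 1 library. All mice, controls included, were made obese on a diet with 60 kcal% fat and then stayed on a high-fat diet that held either standard protein (SP) or high protein (HP). In the groups vehicle SP and vehicle HP the mice received daily subcutaneous injections of vehicle. In the groups G108 SP and G108 HP they received 2.5 nmol/kg of G108, a long-acting agonist of the glucagon receptor, for 22 days. The sample records give an age of 10 weeks at the start of 8 weeks of high-fat feeding and tissue collection on day 25 after a fast of 4 h. The published methods give a younger age and an earlier day. The comparisons ask whether G108 altered the level of these factors on either diet, and whether dietary protein altered them with or without G108. The RNA came from whole liver, so fewer cells of a type and less RNA per cell cannot be told apart.

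Hepatocyte identity is held by a network of factors that bind one another's genes. HNF4A, an orphan nuclear receptor, and the forkhead factors FOXA2 and FOXA3, which open chromatin, act on apolipoprotein, clotting and gluconeogenic genes. C/EBPα and C/EBPβ, the products of Cebpa and Cebpb, are leucine zipper factors of the fed-to-fasted change, and Cebpb is a classical target of cAMP signalling, the pathway downstream of the glucagon receptor. The other 4 genes encode receptors that sense ligands and pair with RXR. PPARα (Ppara) binds fatty acids and drives their oxidation, FXR (Nr1h4) binds bile acids, and PXR (Nr1i2) and CAR (Nr1i3) sense foreign compounds and drive cytochrome P450 genes.

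The tissue label was checked against marker genes. All 10 hepatocyte markers had a mean of at least 1 TPM (a transcript abundance per length, with the same total in every library), and 1 of them was called between groups, Hpd on SP. The bile duct markers Krt7, Krt19, Epcam and Sox9 were under 1 TPM, as were 7 of 8 cholangiocyte markers, all 6 adipocyte markers and all 6 skeletal muscle markers. Lep and Pvalb were listed at 0 in all libraries, and so was the pancreatic gene Prss2. Summed TPM of the 10 Kupffer cell markers was 55.0 to 90.8 with vehicle SP, 73.5 to 105 with vehicle HP, 47.2 to 193 with G108 SP and 49.8 to 106 with G108 HP. At least 1 TPM was also reached by 9 of 10 Kupffer cell, 9 of 10 endothelial, 5 of 10 stellate, 5 of 10 blood cell, 1 of 8 cholangiocyte and 1 of 6 exocrine pancreas markers. None of the markers of these 8 other cell types was called with G108 on either diet.

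Libraries held 27.8 to 45.0 M assigned reads, recovered from the steps between low TPM values. Genes of the mitochondrial genome took 13.8% to 37.3% of TPM in a library. Genes for the major urinary proteins, abundant secreted proteins of mouse liver, took 42.6% to 49.7% with vehicle SP, 35.7% to 44.9% with vehicle HP, 18.4% to 23.0% with G108 SP and 18.2% to 29.6% with G108 HP. TPM has a fixed sum, so all other genes share what these leave. In TPM as deposited, the median gene was higher with G108 than with vehicle by 0.60 on SP and by 0.09 on HP, on the log2(TPM + 1) scale. Each library was therefore divided by a median-of-ratios factor, and the resulting values are called scaled TPM. Factors ranged from 0.681 to 1.54, and after scaling the median gene differed by -0.0082 on SP and -0.0036 on HP. Fold changes below are on the log2(scaled TPM + 1) scale unless TPM as deposited is named. The library of vehicle SP mouse 4 stood apart from its group for several of these genes. Its mitochondrial share was 23.96%, against 13.8% to 16.2% in the other 3 mice of the group. Mouse 3 of G108 HP had the share of 37.3%, against 20.97% to 27.4% in the rest of its group.

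All 9 genes passed the filter of a mean of at least 1 TPM, which 11839 genes passed. In TPM as deposited, which are per length and so can be compared between genes, Cebpa had the highest mean level, 173 ± 65.9 TPM (SD, n = 16 libraries). Cebpb followed at 112 ± 28.1 TPM, Nr1i3, most of whose exon bases are also those of a neighbour, at 83.5 ± 21.6, Hnf4a at 64.4 ± 24.4 and Nr1h4 at 47.1 ± 8.20. Nr1i2 had 28.4 ± 8.08 TPM, Foxa3 22.6 ± 9.64, Foxa2 13.6 ± 3.87 and Ppara 9.84 ± 3.56. Ppara thus lay above 73.0% of the genes tested and Cebpa above 97.2%. Each gene exceeded the next one in this order in 12 to 15 of 16 libraries, while the ranges over libraries of neighbouring genes overlapped. The smallest number of reads behind any value was 579, for Ppara, so counting error was small beside the spread between mice. Within groups the SD of the log2 scaled level was 0.23 (Nr1i2) to 0.38 (Nr1i3), against a median of 0.20 over all genes tested.

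**Figure D1:**
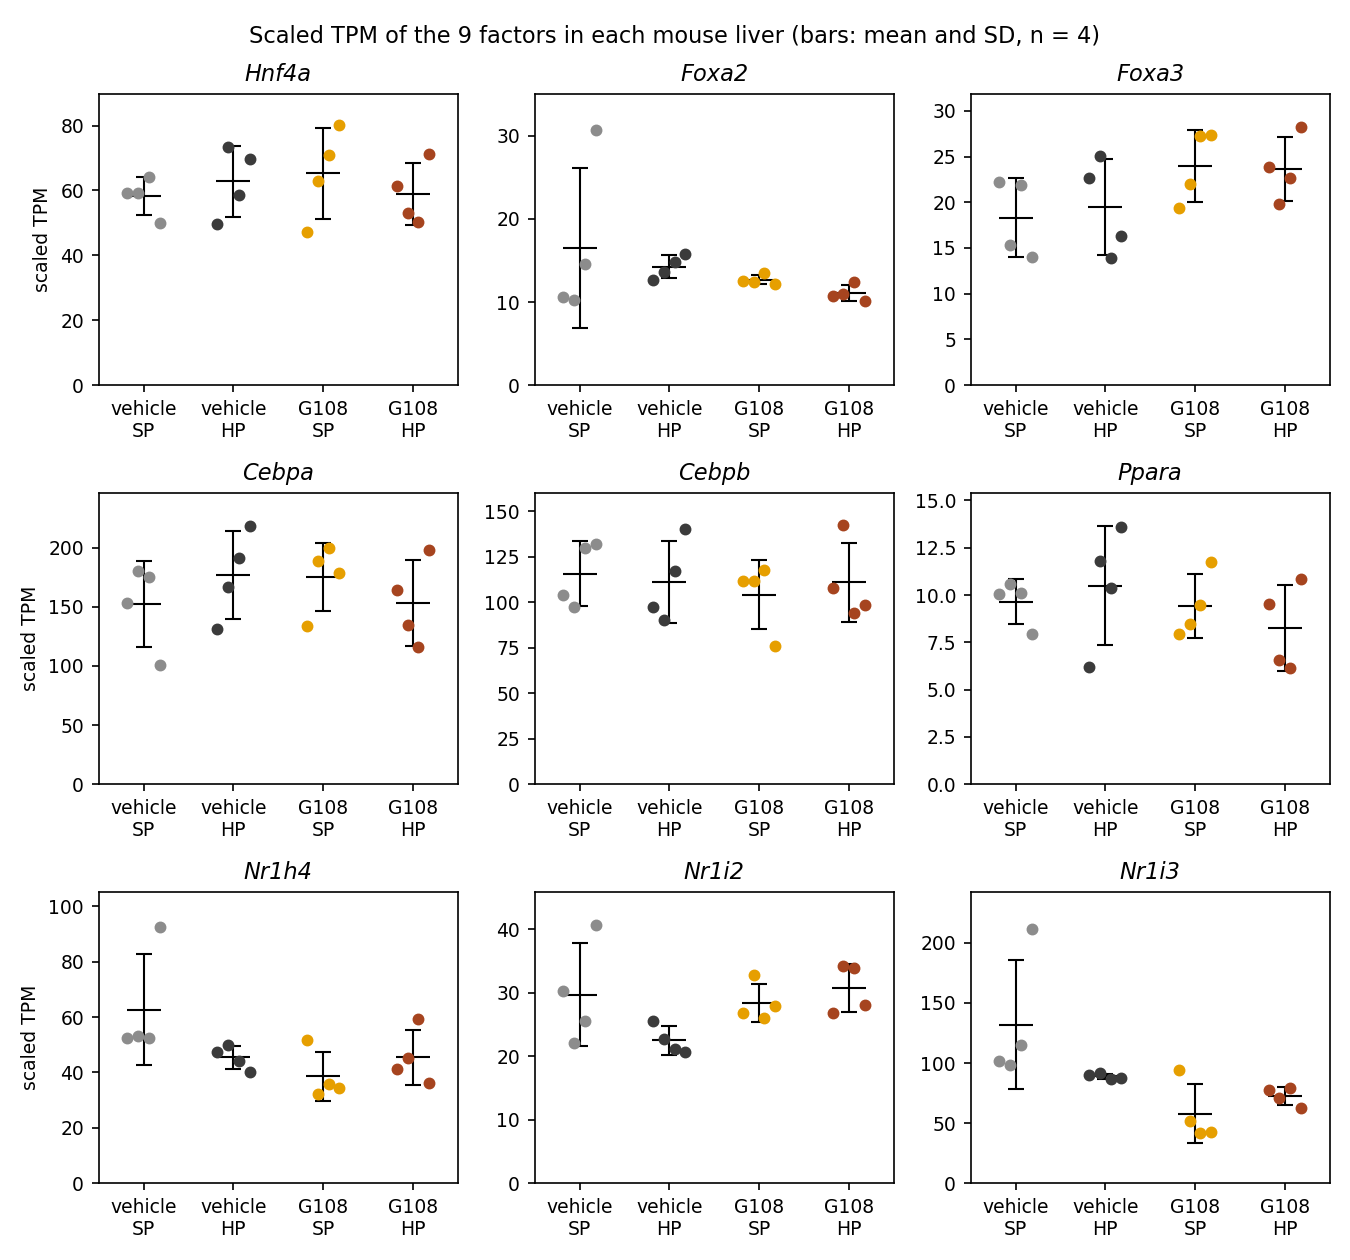
Each point is the scaled TPM (vertical axis, from 0) of 1 of 9 genes in 1 mouse liver, with the 4 groups on the horizontal axis and bars for the mean and SD (n = 4). Nr1i3 of all 4 G108 SP mice lies below all 4 vehicle SP mice, and the vehicle SP mouse at 212 is the highest.

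Nr1i3, which encodes CAR, was the only one of the 9 genes called in any comparison in the main fit (scaled TPM, all 16 libraries, no weights or covariates). With vehicle SP its scaled TPM was 102, 98.45, 115 and 212 in mice 1 to 4. With G108 SP it was 93.85, 52.1, 42.1 and 42.6. The groups did not overlap, but mouse 1 of G108 SP was close to the lowest vehicle mice. The group means were 132 ± 53.8 and 57.7 ± 24.6 (SD, n = 4 each), a log2 fold change of -1.18 (SE 0.25, 95% confidence interval -1.72 to -0.65). The Benjamini-Hochberg adjusted p of limma was 0.0187. Without the high mouse 4 of vehicle SP the log2 fold change was -0.93 and the adjusted p 0.0378. The call was lost when mouse 2, 3 or 4 of G108 SP was left out, with limma adjusted p-values of 0.0585, 0.0795 and 0.0769, and over all alternatives the adjusted p ran from 1.77e-04 to 0.163. In TPM as deposited the difference was -0.42 (limma adjusted p = 0.0823), and the groups overlapped.

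On HP the scaled TPM of Nr1i3 was 90.2, 91.4, 87.0 and 87.2 with vehicle and 77.6, 70.6, 79.4 and 62.9 with G108. All G108 mice were below all vehicle mice here too, with a log2 fold change of -0.30 (SE 0.25, limma adjusted p = 0.756). Vehicle HP was itself below vehicle SP in every mouse, by -0.49 (limma adjusted p = 0.832), and by -0.24 when vehicle SP mouse 4 was left out. The difference between the effects of G108 on HP and on SP was 0.89 (95% confidence interval 0.13 to 1.65, unadjusted p = 0.0243 and adjusted p = 0.575 in limma), which was not called, and 0.64 without vehicle SP mouse 4.

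The reads counted for Nr1i3 (ENSMUSG00000005677, GRCm38 chromosome 1, 171213970 to 171220701, plus strand) may include reads of a neighbour. Of its 4414 exon bases, 3304 (74.9%) are also exon bases of Tomm40l, a protein-coding gene on the opposite strand, and whether the counting used strand was not stated in the sources used here. In every library the reads assigned to Nr1i3 were 80.1% to 104% of those assigned to Tomm40l. Tomm40l was also the gene whose scaled level followed Nr1i3 most closely over the 16 libraries (Pearson r = 0.98, Spearman rho = 0.97). Its own log2 fold change on SP was -0.98 (SE 0.25, limma adjusted p = 0.0495), or -0.73 without vehicle SP mouse 4 (limma adjusted p = 0.104), and on HP -0.26 (limma adjusted p = 0.796). The values of the 2 genes thus moved together. If strand was not used in counting, the fall on SP cannot be told apart between them. Over all genes, 191 had every exon inside exons of an opposite-strand gene with a mean of at least 1 TPM. Of these inner genes, 99.48% had a TPM above 0 in some library and 81.15% had a mean of at least 1 TPM. The median ratio of their mean TPM to that of the outer gene was 2.07. Whether strand was used in counting was not tested beyond these values.

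**Figure D2:**
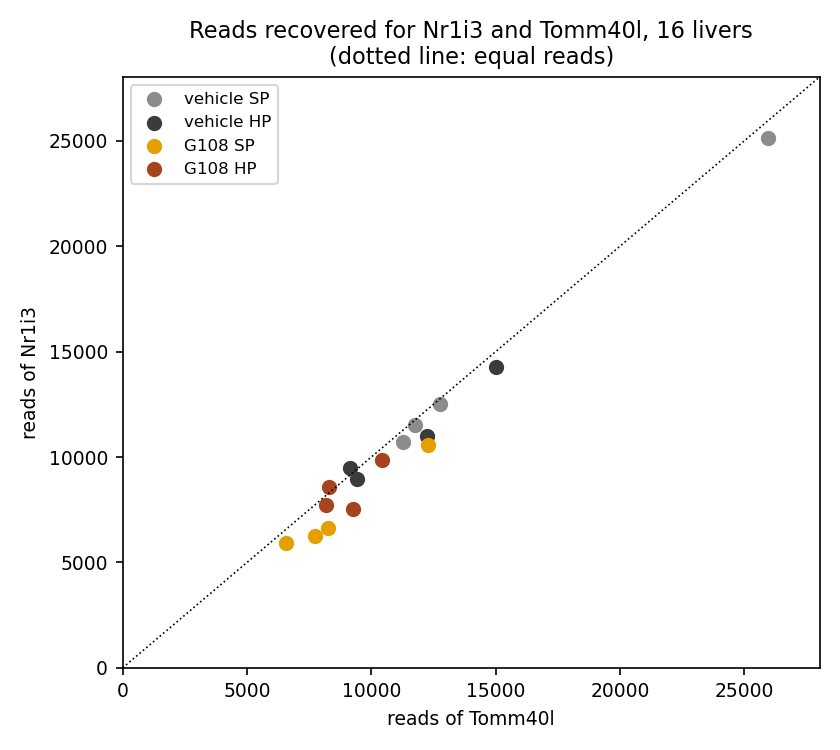
Reads recovered for Nr1i3 (vertical axis) against reads recovered for Tomm40l (horizontal axis) in the 16 livers, coloured by group, with a dotted line of equal reads. The points lie along the line, with Nr1i3 at 80.1% to 104% of Tomm40l, and the vehicle SP mouse 4 is the point at the upper right.

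Nr1h4, which encodes the bile acid receptor FXR, had scaled TPM of 52.5, 53.1, 52.6 and 92.65 in the vehicle SP mice and 51.7, 32.1, 35.95 and 34.5 in the G108 SP mice. The groups did not overlap, although the highest G108 mouse lay less than 2 TPM below 3 of the vehicle mice. The log2 fold change was -0.67 (SE 0.20, 95% confidence interval -1.09 to -0.24), which did not pass the test (limma adjusted p = 0.0986). It was -0.47 without vehicle SP mouse 4, and 0.10 in TPM as deposited. It was called lower under 3 alternatives, at -0.81 without G108 SP mouse 1 (adjusted p = 0.0354), -0.58 with quality weights for libraries (adjusted p = 0.00334) and -0.78 after adding the libraries' GC slopes to the model (adjusted p = 0.0145), all in limma. On HP the values were 40.2 to 49.8 with vehicle and 36.1 to 59.2 with G108, and the log2 fold change was -0.02 (limma adjusted p = 0.985). Vehicle HP lay below vehicle SP in every mouse for this gene as well, by -0.42 (limma adjusted p = 0.832), and by -0.22 when vehicle SP mouse 4 was left out.

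Nr1i2, which encodes PXR, was higher in each G108 HP mouse than in any vehicle HP mouse. Its scaled TPM was 25.6, 22.7, 21.2 and 20.6 with vehicle HP and 26.9, 34.2, 33.97 and 28.1 with G108 HP. The log2 fold change was 0.43 (SE 0.16, 95% confidence interval 0.10 to 0.76), with an unadjusted p of 0.0151 and an adjusted p of 0.258 in limma. TPM as deposited gave 0.55 (limma adjusted p = 0.0886). On SP the scaled values were 22.1 to 40.8 with vehicle and 26.1 to 32.9 with G108, a log2 fold change of -0.03 (limma adjusted p = 0.923), or 0.13 without vehicle SP mouse 4. Nr1i2 was also the gene of the 9 with the lowest unadjusted p for vehicle HP against vehicle SP, at -0.35 (unadjusted p = 0.0395, adjusted p = 0.832 in limma), where the groups overlapped. Without vehicle SP mouse 4 this difference was -0.195.

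Ppara, the receptor of the fasting and fatty acid response, differed by less than its spread in every comparison. Its group means were 9.65 ± 1.18 with vehicle SP, 10.49 ± 3.15 with vehicle HP, 9.42 ± 1.69 with G108 SP and 8.27 ± 2.28 scaled TPM with G108 HP (SD, n = 4 each). The log2 fold change was -0.04 on SP (95% confidence interval -0.49 to 0.41) and -0.30 on HP (-0.74 to 0.15).

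Among the liver-enriched factors, Hnf4a ranged from 50.1 to 64.15 scaled TPM with vehicle SP, 49.6 to 73.3 with vehicle HP, 47.1 to 80.1 with G108 SP and 50.2 to 71.3 with G108 HP. All 4 ranges overlapped. The log2 fold change with G108 was 0.14 on SP (95% confidence interval -0.22 to 0.50) and -0.09 on HP (-0.45 to 0.28). Cebpa ranged from 100.4 to 180 scaled TPM with vehicle SP, 131.5 to 218 with vehicle HP, 134 to 199 with G108 SP and 116 to 198 with G108 HP, and its log2 fold change was 0.22 on SP (-0.25 to 0.69) and -0.21 on HP (-0.68 to 0.26). The SP values without vehicle SP mouse 4 were 0.07 for Hnf4a and 0.03 for Cebpa.

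Cebpb, the member most directly linked to cAMP, did not differ between G108 and vehicle beyond its spread. Its scaled TPM was 104, 97.1, 130 and 132 with vehicle SP and 112, 112, 117 and 75.75 with G108 SP, so that the only value outside the vehicle range was the low mouse 4. The log2 fold change was -0.16 on SP (95% confidence interval -0.55 to 0.23) and -0.00218 on HP (-0.39 to 0.39). Of its 1504 exon bases, 312 (20.7%) are shared with Tmem189 on the opposite strand. Tmem189 was the gene most like Cebpb over the libraries (Pearson r = 0.93). If strand was not used in counting, reads from the shared bases cannot be told apart between these genes.

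Neither forkhead gene passed the test. Foxa2 had scaled TPM of 10.6, 10.2, 14.6 and 30.7 with vehicle SP, 12.7, 13.7, 14.8 and 15.8 with vehicle HP, 12.6, 12.45, 13.5 and 12.2 with G108 SP, and 10.7, 11.01, 12.4 and 10.1 with G108 HP. All G108 HP mice lay below all vehicle HP mice, with a log2 fold change of -0.34 (SE 0.24, limma adjusted p = 0.682). On SP it was -0.22 with all mice and 0.11 without vehicle SP mouse 4, so this 1 library set the sign. Foxa3 was 18.3 ± 4.28 with vehicle SP and 23.97 ± 3.96 with G108 SP (SD, n = 4), and 19.5 ± 5.22 and 23.7 ± 3.51 on HP. Its log2 fold change was 0.38 on SP (95% confidence interval -0.04 to 0.80, limma adjusted p = 0.318) and 0.30 on HP (limma adjusted p = 0.654), with overlapping groups on both diets.

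Counted over the list, G108 on SP gave 1 call among the 9 genes, Nr1i3, where 2.72% of all genes tested were called by limma. The unadjusted p was under 0.05 for 2 of the 9, Nr1h4 and Nr1i3, and for 17.7% of all genes. On HP the count was 0 of 9 beside 1.22% of all genes, with 1 gene, Nr1i2, at an unadjusted p under 0.05, beside 11.3% of all genes. A fit of limma's voom to the recovered reads also called 1 of 9 on SP and 0 on HP. Groups did not overlap for 2 of the 9 genes on SP, beside 9.21% of all genes, and for 3 on HP, beside 8.15%. The median log2 fold change of the 9 genes was -0.04 on SP and -0.09 on HP.

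**Figure D3:**
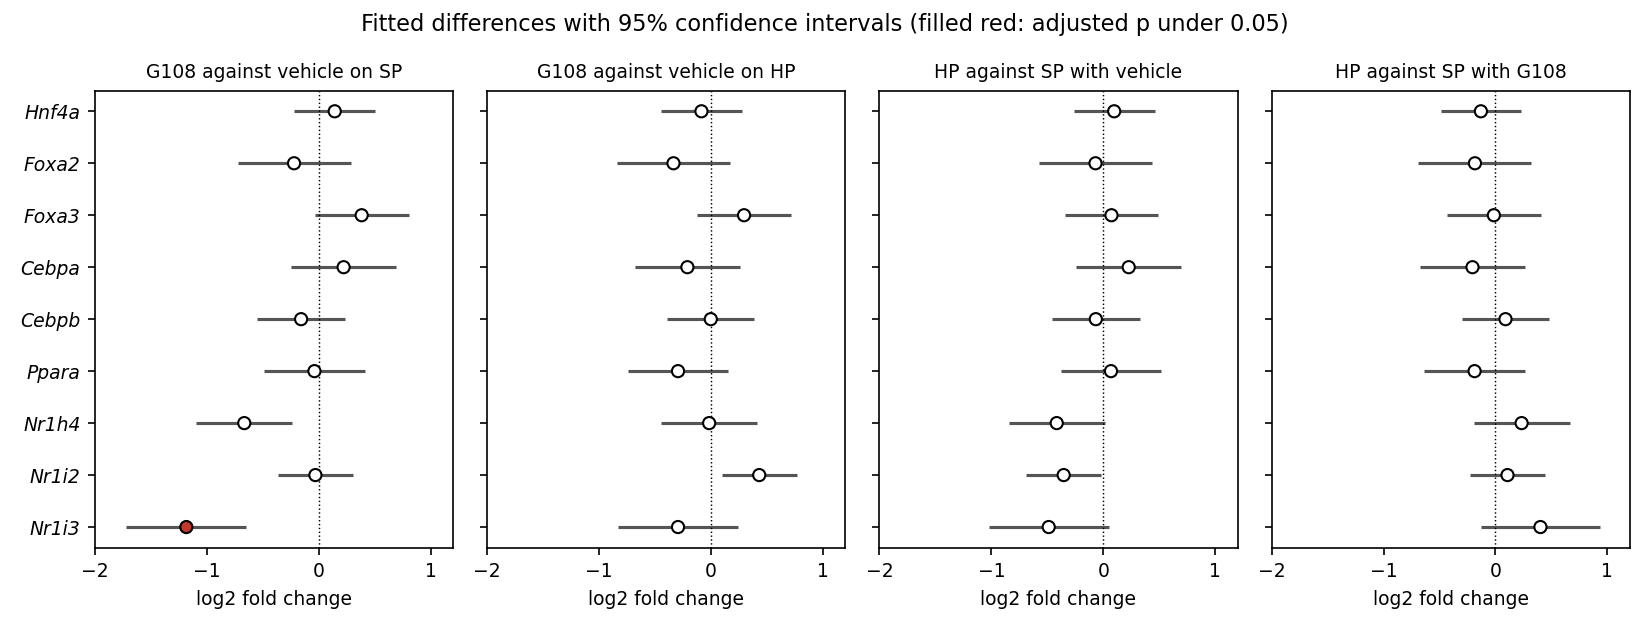
Log2 fold changes on the log2(scaled TPM + 1) scale (horizontal axis) with 95% confidence intervals for the 9 genes (rows) in 4 comparisons (panels), with filled red for an adjusted p under 0.05. Nr1i3 on SP, at -1.18, is the only filled point.

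Dietary protein changed none of the 9 genes past the threshold in the main fit. HP against SP gave 0 calls with G108, where limma called 0% of all genes (639 genes, 5.4%, had an unadjusted p under 0.05, none of them among the 9, and voom called 0). It also gave 0 calls with vehicle, where 0% of all genes were called (466, 3.94%, at an unadjusted p under 0.05, of the 9 only Nr1i2, and voom called 0). With G108 the groups on HP and SP did not overlap for 0 of the 9 genes, beside 4.27% of all genes, and with vehicle for 2, beside 2.01%. Those 2 were Nr1h4 and Nr1i3, both lower on HP. The interaction of G108 and diet was called for 0 of the 9 and for 0% of all genes (854, 7.21%, at an unadjusted p under 0.05, and voom called 0). Nr1h4 and Nr1i3 were the members at an unadjusted p under 0.05 there, with 0.65 (limma adjusted p = 0.575) for Nr1h4, or 0.45 without vehicle SP mouse 4. The effects of G108 on SP and on HP and both diet comparisons share groups, so that the values of 1 gene in them are not independent.

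The number of these genes called on SP differed between the scales. In TPM as deposited, Hnf4a (0.91), Foxa2 (0.51), Foxa3 (1.12), Cebpa (0.99), Cebpb (0.61) and Nr1i2 (0.72) were called higher with G108, 6 of 9, where 77.6% of all genes were called and the median gene was at 0.60. Ppara (0.66, limma adjusted p = 0.0516) lay close to the threshold. The deposited value of each of the 9 genes exceeded its scaled value by 0.70 to 0.77, which is more than the median of 0.60. On both scales 1 TPM is added before log2, which makes the shift smaller for genes of low level. A place above or near the median of 0.60 therefore does not by itself mean a rise beside other genes. Read against that median, Foxa3, Cebpa and Hnf4a lay above it by the largest margins. Foxa2 and Cebpb were close to it, though at -0.22 and -0.16 in scaled TPM. Nr1i2 and Ppara lay above it, though at -0.03 and -0.04 in scaled TPM. Nr1h4 (0.10) and Nr1i3 (-0.42) lay below it. Nr1h4 thus had nearly the same deposited TPM with vehicle SP (49.3 ± 11.1) and with G108 SP (52.2 ± 7.72), while its scaled TPM was 62.7 ± 19.97 and 38.6 ± 8.92 (SD, n = 4 each). On HP both scales gave 0 calls, and their values differed by at most 0.12.

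**Figure D4:**
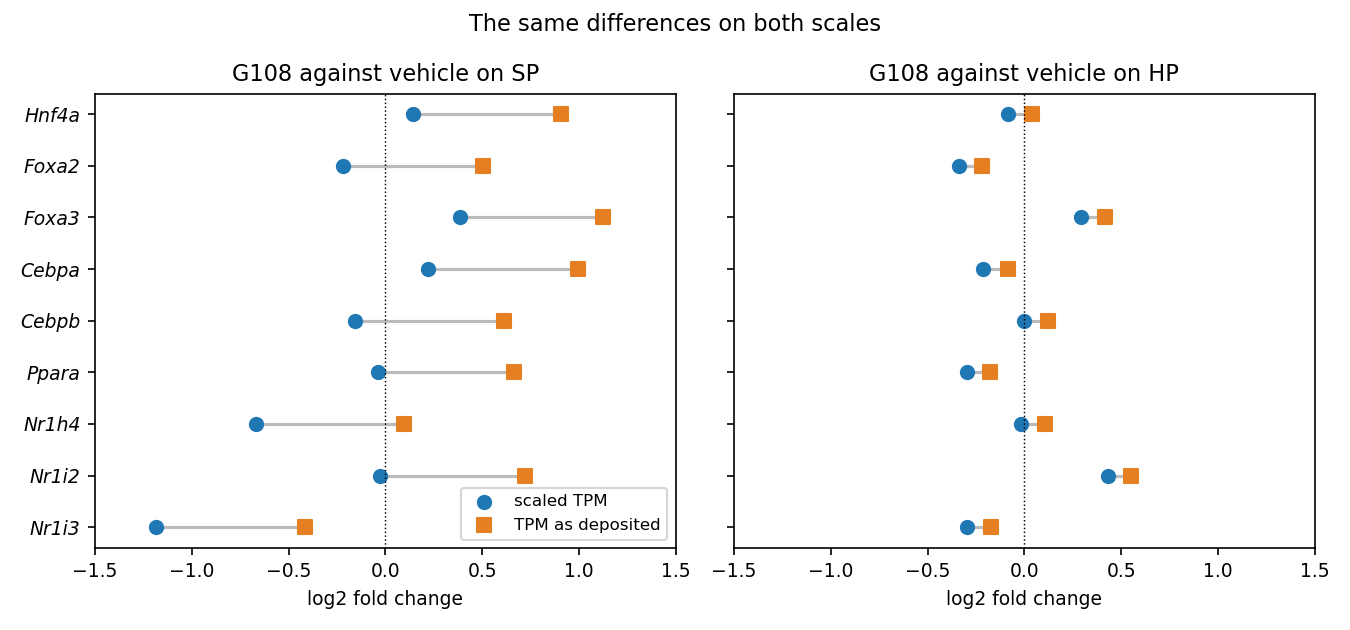
Log2 fold change with G108 (horizontal axis) of the 9 genes (rows) in scaled TPM (blue circles) and in TPM as deposited (orange squares) on SP and on HP. On SP the deposited values lie to the right by 0.70 to 0.77 for all 9 genes, and on HP they lie to the right by 0.12.

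RefSeq start sites on GRCm38.p6 were given for all 9 genes, 12 sites in all, and the 250 bases before each were searched on both strands for 6 short motifs. These were the cAMP response element TGACGTCA, its 5-base core TGACG, the nuclear receptor half-site AGGTCA, the HNF4 motif CAAAGTCCA, the forkhead motif TGTTTAC and the C/EBP motif TTGCNNAA, of which TGACG also lies inside TGACGTCA. The stretches before Cebpb, Nr1h4 and Nr1i3 are shown, Cebpb as the cAMP-linked member and the other 2 as the pair lowest with G108 on SP, written 5′ to 3′ on the strand of the gene with motif matches in capitals. That of Cebpb lies in an intron of Tmem189, and that of Nr1h4 lies within the annotated Nr1h4 gene, which has further starts upstream.
Cebpb, chr2:167688665-167688914, plus strand: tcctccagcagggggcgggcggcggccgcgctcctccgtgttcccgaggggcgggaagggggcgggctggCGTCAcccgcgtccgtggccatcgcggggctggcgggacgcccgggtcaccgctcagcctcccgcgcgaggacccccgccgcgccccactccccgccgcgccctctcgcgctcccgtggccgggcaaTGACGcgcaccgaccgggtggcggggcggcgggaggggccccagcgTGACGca
Nr1h4, chr10:89506659-89506908, minus strand: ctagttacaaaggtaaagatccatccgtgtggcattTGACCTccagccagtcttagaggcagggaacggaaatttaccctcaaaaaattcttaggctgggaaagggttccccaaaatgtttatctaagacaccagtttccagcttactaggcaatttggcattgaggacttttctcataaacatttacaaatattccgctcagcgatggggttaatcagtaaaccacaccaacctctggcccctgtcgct
Nr1i3, chr1:171213720-171213969, plus strand: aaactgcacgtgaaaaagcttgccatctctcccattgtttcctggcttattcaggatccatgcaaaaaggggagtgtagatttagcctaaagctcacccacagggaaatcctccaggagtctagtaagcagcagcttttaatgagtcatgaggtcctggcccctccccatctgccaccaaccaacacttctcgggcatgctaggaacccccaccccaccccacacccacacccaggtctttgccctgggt
The Cebpb stretch held 3 copies of TGACG. Their first bases in these letters stand 180, 53 and 7 bases before the start, and the copy at 180 is on the opposite strand. At least 1 copy was held by 17.77% of 32851 mouse promoter stretches of this length. That share was not matched to the number of copies or to GC content, which was 81.6% in the Cebpb stretch. That of Nr1h4 held 1 AGGTCA on the opposite strand, a motif found in 14.02% of stretches. Ppara had 1 TGACG, and no match to any of the 6 motifs was found in the stretches of the other 6 genes. TGACGTCA itself, present in 1.55% of all stretches, was in none of the 12, and the same held for the HNF4 (0.384%), forkhead (3.17%) and C/EBP (9.56%) motifs.

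The known target genes of these factors were listed with earlier results of the data in view, and they are described by their counts. Over all genes tested, limma called 2.72% on SP and 1.22% on HP. Its unadjusted p was under 0.05 for 17.7% and 11.3% of all genes. Of 18 HNF4A and FOXA targets tested, 2 were called higher on SP, Tat (1.75, limma adjusted p = 0.00633), which encodes tyrosine aminotransferase, and Igfbp1 (1.36, limma adjusted p = 0.00506), an insulin-repressed secreted protein. On HP 1 was called, Tat (1.399, limma adjusted p = 0.0408). Tat rose from 277 ± 148 to 884 ± 223 scaled TPM on SP and from 417 ± 139 to 1055 ± 99.5 on HP (SD, n = 4 each). The unadjusted p of limma was under 0.05 for 4 of the 18 on SP and for 2 on HP. The list's median was -0.05 on SP and -0.14 on HP.

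Of 14 C/EBP targets tested, 3 were called higher on SP and 1 lower. Beside Tat, the higher ones were the gluconeogenic genes Pck1 (1.70, limma adjusted p = 0.0242) and G6pc (1.09, limma adjusted p = 0.0296). Orm1, an acute-phase protein, fell by 0.92 on the log2 scale (limma adjusted p = 0.0159). On HP Tat was the 1 gene called, while Pck1 (1.17) and G6pc (0.89) had limma adjusted p-values of 0.190 and 0.123. The unadjusted p of limma was under 0.05 for 7 of the 14 on SP and for 5 on HP, beside 17.7% and 11.3% of all genes. The list's median was 0.16 on SP and -0.04 on HP.

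Of 23 PPARA targets tested, 1 was called on SP, Pex11a, a peroxisome division gene, which fell by 0.72 on the log2 scale (10.2 ± 0.607 against 17.9 ± 4.09 scaled TPM, limma adjusted p = 0.0132), and 0 on HP. The list's median was 0.18 on SP and -0.38 on HP. The unadjusted p of limma was under 0.05 for 11 of the 23 on SP and for 9 on HP, beside 17.7% and 11.3% of all genes. Those on SP went both ways, for example Cpt1a at 0.62 and Vnn1 at -1.15, and those on HP were all lower with G108. Among the 13 FXR targets tested, limma called 0 on either diet, with medians of -0.12 and -0.28. The FXR list mixes genes that FXR induces, such as Nr0b2, with genes that it represses, such as Cyp8b1. Its medians therefore give no direction of FXR activity. The unadjusted p of limma was under 0.05 for 4 of these 13 targets on SP and for 5 on HP, again beside 17.7% and 11.3%.

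Of 19 PXR and CAR targets tested, 1 was called lower on SP and 2 on HP, beside 2.72% and 1.22% of all genes called. The unadjusted p of limma was under 0.05 for 9 of the 19 on SP and for 9 on HP, beside 17.7% and 11.3% of all genes. Most of these were lower with G108, but Por, Gsta2 and Gstm3 were higher on SP, and Slco1a4 was higher on HP. Cyp2c54, a cytochrome P450, went from 126 ± 31.3 to 53.6 ± 10.4 scaled TPM on SP, a log2 fold change of -1.20 (limma adjusted p = 0.00372), and from 120 ± 21.9 to 59.1 ± 10.0 on HP, a log2 fold change of -1.002 (limma adjusted p = 0.0282). Cyp3a11, the usual marker gene of PXR activity, went from 61.8 ± 23.2 to 11.9 ± 6.03 on HP, a log2 fold change of -2.31 (limma adjusted p = 0.0193). On SP Cyp3a11 was at -1.19 with overlapping groups (limma adjusted p = 0.163). Cyp3a11 was lower on HP, where Nr1i2 was higher in every G108 mouse than in any vehicle mouse. The list's median was -0.18 on SP and -0.34 on HP. The many near-identical members of the Cyp2c and Cyp3a families can share reads, which makes their single values uncertain. In TPM as deposited the genes called lower on SP were not called, with -0.43 for Cyp2c54, -0.15 for Orm1 and -0.0038 for Pex11a, and on HP Cyp3a11 was called (-2.18, limma adjusted p = 0.0214) while Cyp2c54 was not (-0.88, limma adjusted p = 0.0944).

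The counts of these lists on SP differed in TPM as deposited, where 77.6% of all genes were called. On that scale limma called higher 14 of the 18 HNF4A and FOXA targets (median 0.71), 11 of the 14 C/EBP targets (0.93), 15 of the 23 PPARA targets (0.86), 9 of the 13 FXR targets (0.65) and 9 of the 19 PXR and CAR targets (0.60), and it called 0 lower, beside a median of 0.60 over all genes. That median over all genes is lowered by genes of low level, as described above. In scaled TPM the SP medians were -0.05, 0.16, 0.18, -0.12 and -0.18 in the same order, beside -0.0082 over all genes. On HP the deposited medians were -0.02, 0.08, -0.26, -0.15 and -0.22 in the same order, with Tat called higher in the first 2 lists and Cyp3a11 called lower in the last.

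**Figure D5:**
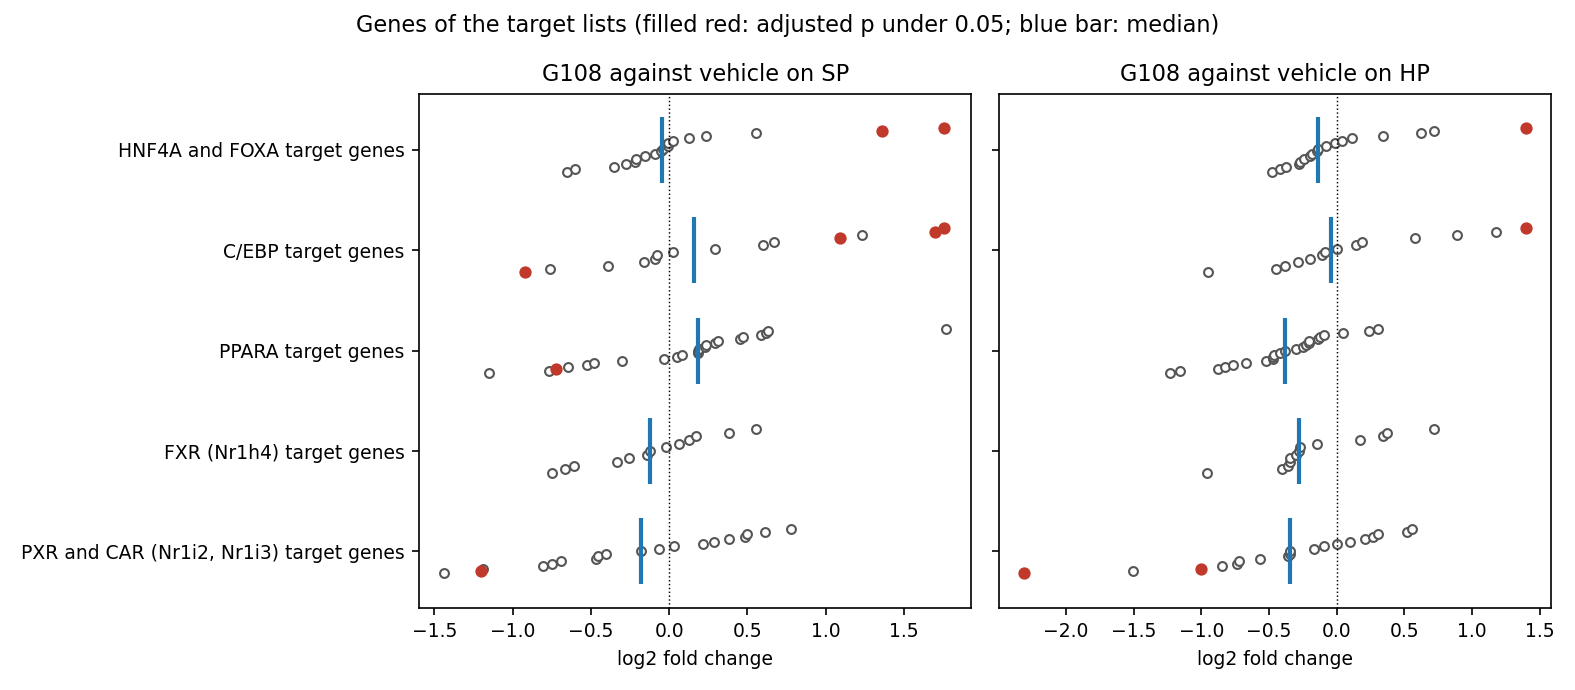
Log2 fold changes with G108 in scaled TPM (horizontal axis) of the genes of 5 target lists (rows) on SP and on HP, with filled red for an adjusted p under 0.05 and a blue bar for each list's median. The PPARA list's median is 0.18 on SP and -0.38 on HP, and the 2 filled PXR and CAR targets on HP are Cyp3a11 at -2.31 and Cyp2c54 at -1.002.

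Other factors of the same network were counted in the same way, beside 2.72% of all genes called on SP and 1.22% on HP. On SP the unadjusted p of limma was under 0.05 for 7 of 20 liver-enriched factors, 8 of 24 nuclear receptors and partners and 3 of 18 coregulators. On HP it was under 0.05 for 6, 4 and 3 in the same order. The shares over all genes were 17.7% on SP and 11.3% on HP. Of 20 other liver-enriched transcription factors tested, Nr5a2 (0.54, limma adjusted p = 0.0130), a regulator of bile acid synthesis, and Klf15 (0.50, limma adjusted p = 0.0171), a factor of amino acid breakdown and gluconeogenesis, were called higher on SP. Klf15 was also called on HP (0.47, limma adjusted p = 0.0415). Of 24 other nuclear receptors and partners, Rora (0.41, limma adjusted p = 0.0455) was called higher on SP, and on HP limma called 0. Of 18 coregulators, Ppargc1a, the cAMP-induced coactivator of HNF4A and PPARα, was called higher on both diets, with 0.89 on SP (limma adjusted p = 0.00274) and 0.66 on HP (limma adjusted p = 0.0337). Its scaled TPM rose from 0.947 ± 0.450 to 2.56 ± 0.473 on SP and from 0.988 ± 0.0978 to 2.15 ± 0.322 on HP (SD, n = 4 each). Both vehicle means lay under 1 TPM, so Ppargc1a passed the filter on the mean of all libraries through its G108 values. At this low level the pseudocount of 1 shrinks the log2 fold change. Over the alternatives it ran from 0.811 to 1.52 on SP and from 0.559 to 1.12 on HP. In these 8 lists limma called 0 genes for diet or for the interaction. When single libraries were left out, the calls of Tat, Igfbp1, Ppargc1a and Cyp2c54 on SP held each time. Those of Nr5a2, Klf15, Rora, Pck1, G6pc, Orm1 and Pex11a on SP and of all 5 genes named on HP were each lost at least once (those of G6pc and Rora without vehicle SP mouse 4, among others), with a limma adjusted p of up to 0.164 on SP and 0.161 on HP.

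Across the 16 libraries some of the 9 genes had like profiles, which are given as a description. Nr1h4 and Nr1i3 had like profiles (Pearson r = 0.90, Spearman rho = 0.84, and r = 0.79 without the 2 libraries farthest from the median of Nr1h4), with r = 0.82 without vehicle SP mouse 4, where Cebpa and Ppara had 0.83. Hnf4a followed Ppara (r = 0.81, rho = 0.78) and Cebpa (r = 0.79, rho = 0.71), and without the 2 libraries farthest from the median of Hnf4a r was 0.83 and 0.84. Cebpa and Nr1h4 ran in opposite directions (r = -0.78, rho = -0.68, and r = -0.54 without the 2 farthest libraries). Deviations from the group means gave r = 0.85 for Nr1h4 and Nr1i3, 0.86 for Hnf4a and Ppara and -0.89 for Cebpa and Nr1h4, so the likeness was also present among mice of the same group. The share of TPM from the mitochondrial genome moved with these genes within groups. Its r with the deviations was -0.70 for Hnf4a, -0.80 for Cebpa and -0.76 for Ppara, and 0.77 for Nr1h4 and 0.52 for Nr1i3. Vehicle SP mouse 4 (23.96%) and G108 HP mouse 3 (37.3%) had the highest shares of their groups. In both, Hnf4a, Cebpa and Ppara were the lowest of the group and Nr1h4 and Nr1i3 the highest. These r were not computed without those libraries. The slope of a library's values on GC content had r of -0.405, -0.60 and -0.48 with the first 3 and 0.63 and 0.39 with the last 2. Nr1i2 had 0.69 with the mitochondrial share and 0.67 with the GC slope. The part of either measure in the likeness was not tested.

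Among all genes tested, the nearest profiles to Hnf4a were those of Zfp91 (Pearson r = 0.94) and Steap4 (0.94), to Cebpa 1700101I11Rik (0.97) and Retreg3 (0.97), and to Ppara Snap47 (0.93) and Abca6 (0.93). Foxa2 was nearest to Map3k5 (0.92, Spearman rho = 0.76) and Gm47639 (0.92, rho = 0.69). Its value in vehicle SP mouse 4, 30.7 scaled TPM, lay far above those of all other mice. Foxa3 was nearest to Cnih4 (0.83) and Ints5 (0.82), and Cebpb, after Tmem189, to Zfp946 (0.75). Nr1h4 was nearest to Slc17a3 (0.96) and 2610021A01Rik (0.95), Nr1i2 to Tff1 (0.92) and Eppk1 (0.90), and Nr1i3, after Tomm40l, to Cyp2d37-ps (0.97). All of these r are over 16 libraries.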

How the data were processed

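The authors checked reads with FastQC 0.11.8, aligned them to GRCm38 with HISAT2 2.0.5, ran featureCounts per gene and deposited TPM values for 16 liver libraries. TPM as deposited by the authors divide reads by exon length and sum to the same total in every library, with no further scaling. The authors also ran DESeq2 on read counts, which were not used here. Samples were grouped by the sample records. Symbols, coordinates and exon lengths came from GENCODE vM21 (55227 rows matched).

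The 9 genes, the target, factor and marker lists and the rule for named genes (all 9 genes, up to 4 called genes per list and comparison, and the 2 genes nearest to each of the 9) were chosen with earlier results of these data known. Assigned reads were recovered from TPM steps: 98.9% of 113146 low values were whole reads to within 0.02. TPM were divided by median-of-ratios factors from 11591 genes, because DESeq2, which the authors used, scales libraries by size factors. In TPM as deposited 77.6% of genes were called on SP. The 11839 genes whose mean reached 1 TPM were fitted on log2(scaled TPM + 1) with limma 3.58.1 (R 4.3.3), 1 mean per group, a variance trend and Benjamini-Hochberg adjustment over all of them. Calls are at an adjusted p under 0.05. The sample records do not say whether mice shared a litter or cage, and the published methods state that mice were housed singly. The fit was tested on simulated data. Alternatives were TPM as deposited, TPM rescaled without mitochondrial and major urinary protein genes, a pseudocount of 0.1, no filter, a mean TPM of at least 5, a replicate block by mouse number, only the groups compared, limma's quality weights and each library left out. Voom on the recovered reads and the GC slope as a covariate were added after the data were seen. Promoter sequences are from RefSeq (GRCm38.p6).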

Additional observations from a re-analysis of the deposited data

Results flagged for a closer look

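Within groups of 4 mice, 3 of the 36 combinations of gene and group held a mouse whose gap to the nearest other mouse exceeded Dixon's 95% critical share of the group's range, which chance gives in about 1 in 20 groups. Vehicle SP mouse 4 had 92.65 scaled TPM of Nr1h4, against 52.5 to 53.1 in the other 3 mice, and 211.8 scaled TPM of Nr1i3, against 98.45 to 115. Both values lie in the group against which G108 SP was compared. Mouse 4 of G108 SP had 75.75 scaled TPM of Cebpb, against 112 to 117 in the other 3 mice.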

How the results depend on the processing

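Unless a library is named, values are log2 differences of the comparison named, and the cause of each change was not tested. For the 9 genes, the number called with G108 on SP was 1 in the main fit of scaled TPM with all libraries. It was 6 in TPM as deposited, 2 with array quality weights, 2 with the GC slope, 0 with no filter on low values and 0 with only the groups compared. Leaving out each library in turn gave 0 to 2. With G108 on HP (0 of the 9), array quality weights gave 1, Foxa2 (-0.398, limma adjusted p = 0.0452), and for HP against SP with G108 (also 0) they gave 1, Nr1i3 (0.66, limma adjusted p = 0.0256). With the mouse number as a replicate block the call of Nr1i3 on SP was lost (limma adjusted p = 0.0504), leaving 0 of the 9, and all genes called went from 322 to 213 on SP and from 145 to 35 on HP. The numbers share no stated litter, cage or day, and same-numbered mice did not deviate together (r of deviations -0.567 to 0.529 over 24 pairs, median -0.0276), so they were not taken as pairs.

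In TPM as deposited the sign turned with G108 on SP for Foxa2 (0.505), Cebpb (0.612), Ppara (0.664), Nr1h4 (0.0951) and Nr1i2 (0.723), and on HP for Hnf4a (0.038), Cebpb (0.122) and Nr1h4 (0.105). It turned for HP against SP with G108 for Cebpb (-0.356), Nr1h4 (-0.206), Nr1i2 (-0.329), Nr1i3 (-0.0403) and Tomm40l (-0.187), with vehicle for Foxa2 (0.119) and Cebpb (0.134), and in the interaction for Cebpb (-0.49) and Nr1i2 (-0.172). Rescaled without mitochondrial and major urinary protein genes, it turned on SP for Ppara (0.0193) and Nr1i2 (0.0324), and for HP against SP with G108 for Cebpb (-0.0581) and Nr1i2 (-0.037). With array quality weights it turned on SP for Foxa2 (0.157) and Nr1i2 (0.185), and for HP against SP with vehicle for Foxa2 (0.318), Foxa3 (-0.0195) and Cebpb (0.0753). With the GC slope it turned on SP for Ppara (0.0522), on HP for Cebpb (0.0103), and for HP against SP with vehicle for Foxa2 (0.0346) and Ppara (-0.00882).

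Leaving out single libraries spanned 0 with G108 on SP for Foxa2 (-0.39 to 0.109), Nr1i2 (-0.156 to 0.129) and Ppara (-0.14 to 0.0274), and on HP for Cebpb (-0.127 to 0.116) and Nr1h4 (-0.147 to 0.0838). It did so for HP against SP with G108 for Cebpb (-0.0543 to 0.162) and Foxa3 (-0.106 to 0.0646), and with vehicle for Cebpb (-0.183 to 0.0274), Foxa2 (-0.237 to 0.261), Foxa3 (-0.0529 to 0.214) and Ppara (-0.0593 to 0.277). In the interaction it did so for Foxa2 (-0.444 to 0.0533) and Foxa3 (-0.228 to 0.0385).

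Genes called over all genes on SP numbered 9185 in TPM as deposited (9113 higher, 72 lower, against 158 and 164 in scaled TPM), 1821 with array quality weights, 1730 with the GC slope, 107 with only the groups compared and 152 to 471 with single libraries left out. On HP they numbered 43 with no filter, 77 at a mean TPM of at least 5, 795 with array quality weights, 50 with only the groups compared and 17 to 145 with single libraries left out. The split on HP was 76 higher and 69 lower in scaled TPM, 97 and 35 in TPM as deposited, and 52 and 80 when rescaled without mitochondrial and major urinary protein genes. For HP against SP with G108, array quality weights called 297 and only the groups compared 1. For HP against SP with vehicle, 1 was called with no filter, 1 with the replicate block and 2 without vehicle SP mouse 1. The interaction had 1 with no filter. The target and network genes called kept their sign under every alternative. With only the groups compared, Cyp2c54 was the sole one of them still called on SP, and Cyp3a11 and Ppargc1a were on HP.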

Other observations

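The values in this paragraph were chosen after they were seen, and none passed the test. Nr0b2, which encodes SHP, the repressor induced by FXR, had 38.0 ± 7.50 scaled TPM with vehicle SP, 24.9 ± 5.97 with vehicle HP and 22.0 ± 3.00 with G108 SP (SD, n = 4 each). Its log2 fold change with G108 on SP was -0.75 (limma adjusted p = 0.0737) without overlap of the groups, beside the -0.67 of Nr1h4 itself. The deposited TPM gave 5.19e-04, against 0.10 for Nr1h4. Foxa1, the third forkhead factor of the liver, lay below vehicle with G108, at -0.57 on SP (limma adjusted p = 0.115) and -0.61 on HP (limma adjusted p = 0.144), while Foxa3 lay above vehicle by 0.38 and 0.30. Foxa1 in TPM as deposited was at 0.07 on SP, so its direction there depended on the scale, and at -0.51 on HP. Cyp8b1, which encodes the enzyme that sets the share of cholic acid in bile, had 49.4 ± 16.04 scaled TPM with vehicle SP and 102 ± 31.0 with vehicle HP, a log2 difference of 1.04 (limma adjusted p = 0.832). With G108 it had 32.1 ± 15.9 on SP and 53.1 ± 20.2 on HP.

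Hpd, the hepatocyte marker called on SP, encodes an enzyme of tyrosine breakdown, the step after that of Tat.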
